A study of Rattus norvegicus with 15 samples.

Results

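Livers of rats fed a lipid-raising feed (HFD) were compared with livers of rats fed normal chow (CON) across all measured genes, with attention to gene families, transcription factors, secreted proteins, receptors and genes near silence in chow liver. The comparison takes the 5 CON and the 5 HFD libraries by their labels, 10 of the 15 libraries of the study. The remaining 5 libraries came from rats on the same feed that also received Zexie Decoction (ZXD), a herbal extract, at 2.2 g per kg per day. They share the low-count filter that decides which genes are tested, the scaling between libraries and the estimate of spread. Their own levels are not described.

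All animals were male Sprague-Dawley rats, an outbred laboratory strain, and RNA was taken from whole liver; ages are not given. CON rats ate chow. HFD rats ate base forage (66%) mixed with 16.7% sucrose, 8.3% yolk, 7% lard, 2% cholesterol, 0.3% sodium cholate and 0.2% propylthiouracil for 4 weeks and for another 4 weeks with saline by mouth. Sodium cholate is a bile salt that aids sterol uptake, and propylthiouracil blocks the making of thyroid hormone, so the effects of the single ingredients cannot be told apart. Each group held 10 rats, and the labels do not state that each library is 1 rat, so p-values measure only how these samples vary, which may be technical variation.

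The liver is mostly made of hepatocytes, which secrete the plasma proteins, clear hormones and foreign compounds and burn amino acids and fat. Their program rests on liver-enriched transcription factors such as HNF4A, ONECUT1 and the C/EBP and FOXA families, and it is tuned by nuclear receptors, growth hormone, thyroid hormone and the daily clock. Growth hormone acts on the liver through its receptor and makes it release IGF1, and in male rats its pulses also set sex-typical enzymes. In an injured or inflamed liver, plasma protein genes tend to be less expressed and genes of immune cells, cytoskeleton and bile-duct-like cells more.

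Libraries held 12972523 to 14228052 counts in CON and 12552449 to 13687385 in HFD. Levels are counts brought to one common library total (CPM) and scaled by TMM, edgeR's between-library factor, which ranged from 0.793 to 0.867 in CON and from 1.07 to 1.13 in HFD. Albumin made up 8.57% ± 0.628 of all counts in CON libraries (SD, n = 5, as for every ± below) and 4.33% ± 0.916 in HFD libraries. Where library totals replaced TMM, the all-gene median log2 fold change went from 0.02 to 0.44, so every direction below is relative to the TMM scale, and the median of each list is given on both. A count of 3, the floor used for genes at 0, was worth 0.256 to 0.285 CPM in CON and 0.194 to 0.222 CPM in HFD. The libraries HFD 2 and HFD 5 stood apart from the other HFD libraries. On the leading principal component, which held 49.8% of the variance, they lay at 78.6 and 79.9, the other HFD libraries between 4.58 (HFD 4) and 39.9, and CON between -57.6 and -33.0. Counts of called genes are therefore also given without both.

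Summed markers of some other cell types, but not of all, were highest in the same libraries, as the plot of summed marker levels shows. Sinusoidal endothelial sums were 758.2 and 655.6 CPM in HFD 1 and HFD 4, and 572.5 and 459.5 CPM in HFD 2 and HFD 5. Among HFD libraries the B and plasma cell sum was highest in HFD 1, at 511.4 CPM. The summed level of 28 Kupffer cell and macrophage markers was 895 to 1960 CPM in CON and 1712, 3203, 1768, 883 and 2287 CPM in HFD 1 to 5, with no marker at 0 in every library of a group. Of 22 T and NK cell markers in the table, 2 were at 0 in all CON libraries and 1 in all HFD libraries, and their sum was 21.4 to 49.8 CPM in CON and 79.0, 138, 76.3, 47.4 and 141 CPM in HFD 1 to 5. The 17 cholangiocyte markers summed to 71.6 to 86.3 CPM in CON and 104 to 214 CPM in HFD. The 22 hepatocyte markers summed to 216000 to 249000 CPM in CON and 119000 to 144000 CPM in HFD. Albumin, at 8.57% of all counts in CON and 4.33% in HFD, is 1 of these 22, of which 7 were called lower. For the macrophage and T cell sums HFD 4 lay within or below the CON range while HFD 2 and HFD 5 lay above it. In bulk liver, fewer cells of a type and less RNA per cell cannot be told apart, and the part of these markers in the results below was not tested.

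**Figure D1:**
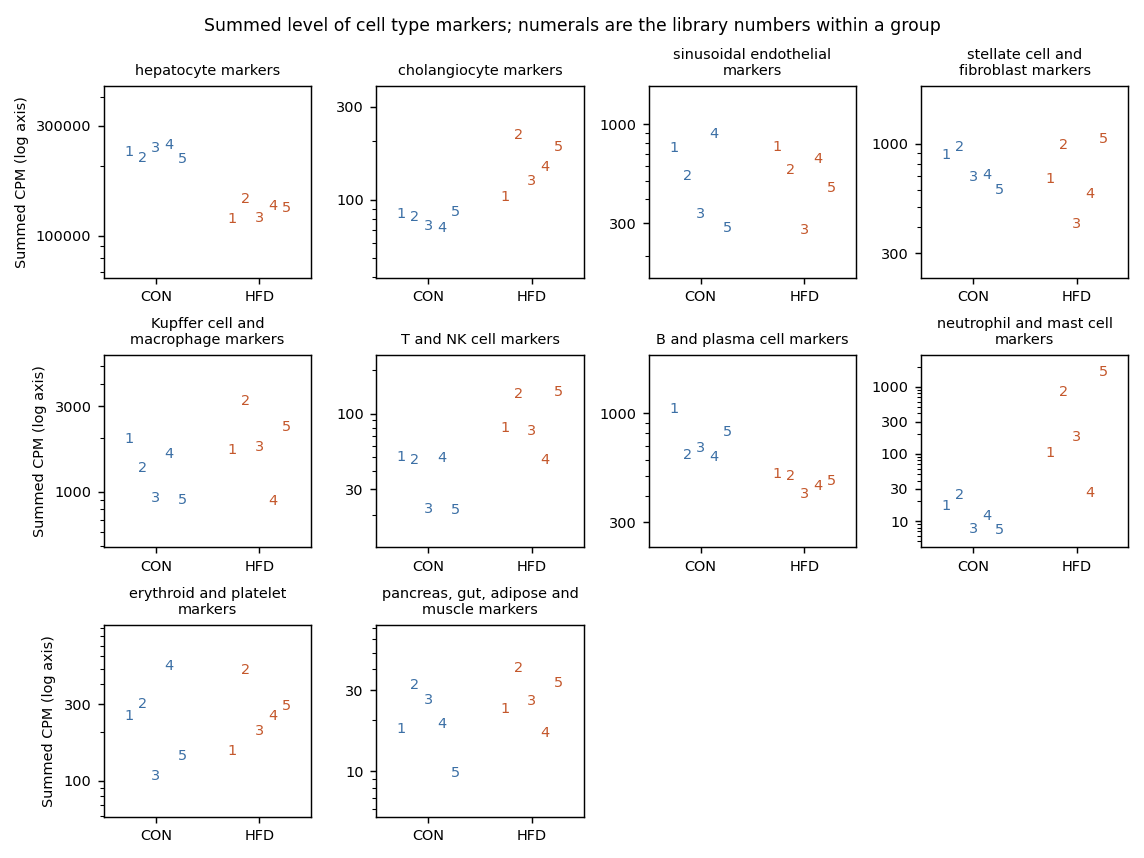
Summed CPM (log axis) of each cell type marker list in each library of CON and HFD; numerals are library numbers within a group. The HFD hepatocyte sums, 119000 to 144000 CPM, lie below all CON sums, and the T and NK cell sums of HFD 2 and HFD 5 are the highest of the 10 libraries.

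Expression differed between the groups for a large part of the tested genes, in both directions. Of 13163 tested genes, 2758 (21.0%) were called by edgeR's quasi-likelihood test at a p under 0.05 after Benjamini-Hochberg (BH) adjustment over all of them, 1322 (10.0%) higher and 1436 (10.9%) lower in HFD. On library totals the split was 5390 higher and 505 lower. The rises were larger than the falls, with 764 genes called higher and 485 called lower by at least 2-fold, and 322 and 119 by at least 4-fold. All HFD libraries lay above all CON libraries for 867 tested genes (6.59%) and below them for 1113 (8.46%), and 724 and 942 of these were also called. Without HFD 2 and HFD 5, 436 genes were called higher (3.25% of 13434) and 607 lower (4.52%), of which 409 and 572 were also called with them. The higher calls numbered 809 without CON 3, 809 without CON 5, 754 without HFD 2 and 780 without HFD 5, and the lower calls 925 without CON 3, 934 without CON 4, 943 without HFD 2 and 950 without HFD 5.

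**Figure D2:**
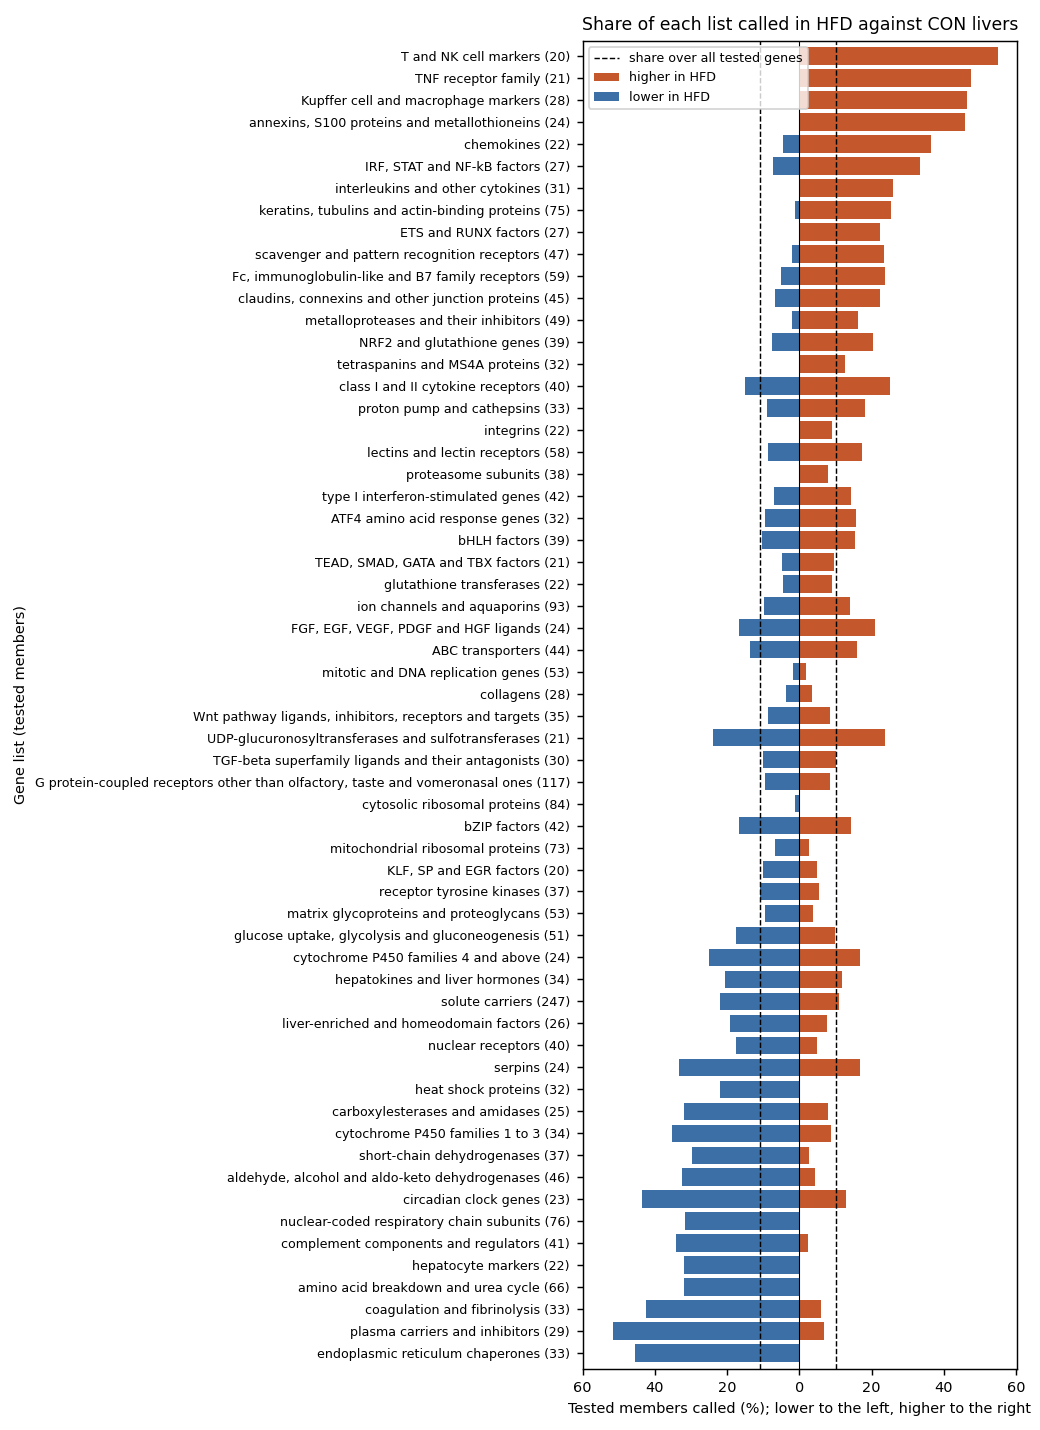
Percent of the tested members of each gene list described here (at least 20 tested members, number in brackets) called higher (right) or lower (left) in HFD against CON, on the TMM scale; dashed lines mark the shares over all tested genes, 10.0% and 10.9%. Plasma carriers, endoplasmic reticulum chaperones and circadian clock genes reach farthest to the left, and T cell markers, TNF receptors and macrophage markers farthest to the right.

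Among transcription factors, the liver-enriched factor Onecut1, also called HNF6, fell most. It measured 138, 89.2, 101, 90.9 and 171 CPM in CON libraries 1 to 5 and 9.26, 2.37, 1.26, 5.39 and 1.29 CPM in HFD libraries 1 to 5, the order used throughout. Every HFD library lay far below every CON library, and the log2 fold change was -4.90 (SE 0.56, BH-adjusted p by edgeR = 7.06e-05). Of 26 tested liver-enriched and homeodomain factors, 5 were lower and 2 higher, with a median of -0.23 (0.19 on library totals, where 1 was lower). The 5 became 3 without HFD 2, HFD 3, HFD 5 or any of CON 2 to 5, and 1 without HFD 2 and HFD 5 together. Cebpa, which supports mature hepatocyte genes, went from 453 ± 86.5 to 234 ± 62.1 CPM (BH-adjusted p by edgeR = 0.0102) and Foxa1, a pioneer factor, from 68.5 ± 21.4 to 36.3 ± 7.24 CPM (BH-adjusted p by edgeR = 0.00989), and both calls were lost without HFD 2 and HFD 5 and on library totals. The master regulators Hnf4a, Foxa2 and Prox1 did not pass, at log2 fold changes of -0.26 (SE 0.24), -0.34 (SE 0.24) and -0.13 (SE 0.26).

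Among the nuclear receptors, ligand-bound factors for steroids, thyroid hormone, sterols and bile acids, falls outnumbered rises. Of 40 tested members 7 were lower and 2 higher, with a median of -0.24 (0.18 on library totals, where 3 were lower and 8 higher), and without HFD 2 and HFD 5 the numbers were 3 and 1. Esr1, the estrogen receptor alpha, measured 18.3, 6.15, 6.94, 21.4 and 7.15 CPM in CON and 2.20, 1.12, 0.665, 0.409 and 0.271 CPM in HFD. Its groups did not overlap, and it fell by 3.66 on the log2 scale (SE 0.58, BH-adjusted p by edgeR = 0.000804). Nr3c1, the glucocorticoid receptor, measured 285, 224, 230, 271 and 289 CPM in CON and 175, 122, 144, 179 and 132 CPM in HFD. All 5 HFD libraries were below all 5 CON libraries, and it fell by 0.79 (SE 0.15, BH-adjusted p by edgeR = 0.00289). Nr1h4, the bile acid receptor FXR, fell by 1.25 (SE 0.19, BH-adjusted p by edgeR = 0.000687). The thyroid hormone receptor Thra rose from 6.95 ± 1.09 to 12.6 ± 4.40 CPM (BH-adjusted p by edgeR = 0.0132), with groups that overlapped. The xenobiotic receptors Nr1i2 and Nr1i3 did not pass, at -0.58 (SE 0.26) and -0.24 (SE 0.41).

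The bZIP factors, dimers that read stress, daily time and differentiation signals, moved both ways. Of 42 tested members 6 were higher and 7 lower (median -0.16, 0.26 on library totals; 2 higher and 3 lower without HFD 2 and HFD 5), and the 6 became 3 without CON 2, CON 3, CON 5 or HFD 2. Mafk, a small MAF protein, rose from 25.2 ± 3.52 to 53.6 ± 12.4 CPM (BH-adjusted p by edgeR = 0.0011), and Nfe2l2, the oxidative stress factor NRF2 that pairs with small MAF proteins, rose by 0.62 (SE 0.11, BH-adjusted p by edgeR = 0.00143).

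In the bHLH family, 6 of 39 tested members were higher and 4 lower (median 0.19, 0.60 on library totals; 2 higher and 2 lower without HFD 2 and HFD 5). Id1, a dominant inhibitor of bHLH factors and a known target of BMP signals, measured 4.76, 4.91, 7.41, 3.19 and 4.77 CPM in CON and 16.6, 29.6, 15.1, 81.2 and 20.3 CPM in HFD. HFD 4 was the highest by far, yet each of the 5 HFD libraries lay above all of CON, a rise of 2.70 (SE 0.49, BH-adjusted p by edgeR = 0.00215). Mlxipl, the sugar sensor ChREBP, fell from 344 ± 104 to 115 ± 26.7 CPM (BH-adjusted p by edgeR = 0.000499) and Hes6, a HES family regulator, from 74.0 ± 17.6 to 20.3 ± 8.26 CPM (BH-adjusted p by edgeR = 0.000816). The clock factor Npas2, a partner of BMAL1, measured 0.449, 0.803, 0.380, 0.355 and 0.596 CPM in CON and 1.10, 16.1, 1.55, 13.2 and 3.32 CPM in HFD. It was higher in every HFD library but over a wide range, with a log2 fold change of 3.74 (SE 0.76, BH-adjusted p by edgeR = 0.00401), a call that limma voom did not make.

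Genes of the daily clock, which turns gene activity over the day through a feedback loop of activators and repressors, were more often lower than higher on the TMM scale. Of 23 tested members 10 were lower and 3 higher, with a median of -0.58 (-0.16 on library totals, where 6 were lower and 6 higher), and without HFD 2 and HFD 5 the numbers were 3 and 1. Noct, a rhythmic phosphatase, measured 43.7, 28.4, 39.2, 63.9 and 11.5 CPM in CON and 3.50, 2.58, 2.14, 3.27 and 6.44 CPM in HFD. Groups did not overlap and Noct fell by 3.38 (SE 0.44, BH-adjusted p by edgeR = 0.0002). The repressor Cry1 fell by 1.85 (SE 0.24, BH-adjusted p by edgeR = 0.000194) and its partner Per3 fell by 1.32 (SE 0.28, BH-adjusted p by edgeR = 0.00551). The core activators Clock and Arntl (BMAL1) and the repressor Nr1d1 did not pass, at -0.04 (SE 0.20), 1.28 (SE 0.60) and 0.71 (SE 0.34). The time of day at which the livers were taken is not given in the sources used here.

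Factors of immune signalling were more often higher than lower. Of 27 tested IRF, STAT, NFAT and NF-kB factors 9 were higher and 2 lower, with a median of 0.52 (0.94 on library totals), and the 9 became 5 without HFD 2 or without HFD 5 and 3 without both. Nfatc2, a calcium-activated factor of lymphocytes, measured 1.17, 1.07, 1.62, 2.13 and 1.02 CPM in CON and 5.83, 6.07, 5.24, 2.93 and 4.41 CPM in HFD. Groups did not overlap and it rose by 1.8 (SE 0.28, BH-adjusted p by edgeR = 0.000687). Stat3 and Stat6, which carry cytokine signals to the nucleus, rose by 0.72 (SE 0.20, BH-adjusted p by edgeR = 0.0193) and 0.57 (SE 0.12, BH-adjusted p by edgeR = 0.00488). Irf1, an interferon-induced factor, was at 14.3 ± 2.94 CPM in CON and at 114, 121, 74.7, 30.2 and 111 CPM in HFD (BH-adjusted p by edgeR = 0.00982), a call lost without HFD 2 and HFD 5. Of 27 ETS and RUNX factors 6 were higher and 0 lower (median 0.58, 1.0 on library totals), but only 1 to 3 without any of CON 2 to 5, and 0 without HFD 2 or without HFD 5. The summed macrophage and T cell markers of HFD 2 and HFD 5 are given above.

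The other factor families held few calls. Of 20 KLF, SP and EGR factors 1 was higher and 2 lower (median -0.17, 0.24 on library totals; 1 higher and 0 lower without HFD 2 and HFD 5); the 1 was Klf6, an injury-response factor, which rose from 37.1 ± 9.68 to 111 ± 36.9 CPM with groups that did not overlap (BH-adjusted p by edgeR = 0.00115). Of 19 forkhead factors 1 was higher and 3 lower (median -0.15, 0.26 on library totals; 0 higher and 1 lower without HFD 2 and HFD 5), among them Foxo3, which insulin signals keep out of the nucleus and which fell by 1.09 (SE 0.22, BH-adjusted p by edgeR = 0.00363). Of 9 SOX factors (median -0.06, 0.36 on library totals; 0 higher and 0 lower without HFD 2 and HFD 5) and 21 TEAD, SMAD, GATA and TBX factors (median -0.02, 0.41 on library totals; 1 higher and 0 lower without HFD 2 and HFD 5), 1 and 2 were higher and 1 and 1 lower. The immediate early genes Fos, Jun, Egr1 and Myc, which respond within minutes to growth signals and handling, did not pass, at 0.04 (SE 0.79), 0.24 (SE 0.36), -0.46 (SE 0.74) and 0.51 (SE 0.39).

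**Figure D3:**
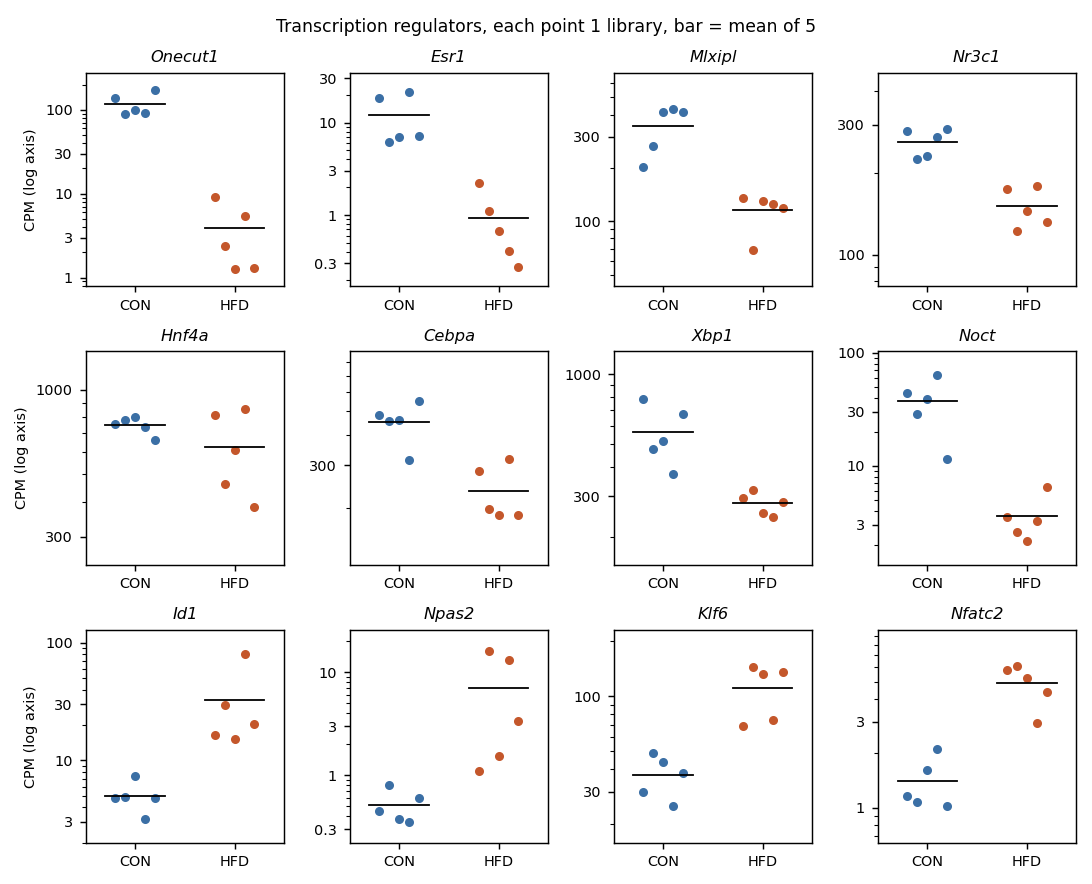
CPM (log axis) of 12 transcription regulators in the 5 CON and 5 HFD libraries; points are libraries and bars are group means. Onecut1 (118 to 3.91 CPM), Esr1 and Noct show groups far apart, while Hnf4a (748 to 625 CPM) overlaps.

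Plasma proteins made by hepatocytes were the secreted group most often lower. Of 29 tested plasma carriers and inhibitors 15 were lower and 2 higher, with a median of -0.69 (-0.27 on library totals, where 9 were lower and 5 higher), and without HFD 2 and HFD 5 the numbers were 10 and 2. Alb, albumin, fell by 1.4 (SE 0.29, BH-adjusted p by edgeR = 0.00422). The fetuin Ahsg, which binds calcium phosphate, fell by 1.83 (SE 0.26, BH-adjusted p by edgeR = 0.000325), its relative Fetub fell by 1.69 (SE 0.22, BH-adjusted p by edgeR = 0.000163) and Afm, afamin, a vitamin E carrier, fell by 2.35 (SE 0.34, BH-adjusted p by edgeR = 0.000416). Afp, the fetal albumin, fell from 11.5 ± 1.78 to 5.43 ± 1.27 CPM (BH-adjusted p by edgeR = 0.0146; not called on library totals). Hamp, the iron hormone hepcidin, rose from 276 ± 112 to 582 ± 144 CPM with groups that did not overlap (BH-adjusted p by edgeR = 0.0172).

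Serpins, protease inhibitors and hormone carriers, held large changes in both directions. Of 24 tested members 8 were lower and 4 higher (median -0.32, 0.10 on library totals, where 5 were lower and 8 higher; 2 higher and 4 lower without HFD 2 and HFD 5); 5 were lower without CON 4. Serpina3c, a contrapsin-like inhibitor from a cluster of close copies whose reads may be split, measured 5445, 7773, 8882, 9220 and 11081 CPM in CON and 180, 537, 14.5, 720 and 220 CPM in HFD. The lowest CON library was above the highest HFD library, and the gene fell by 4.66 (SE 0.84, BH-adjusted p by edgeR = 0.00198). Serpina7, thyroxine-binding globulin, went the other way, at 22.3, 16.1, 11.2, 2.93 and 14.1 CPM in CON and 100, 194, 166, 120 and 158 CPM in HFD. Each HFD library exceeded each CON library, a rise of 3.47 (SE 0.39, BH-adjusted p by edgeR = 6.6e-05). Of 8 tested lipocalins and urinary proteins 4 were lower and 1 higher (median -0.72, -0.30 on library totals), 2 lower without CON 3 or CON 4, and 1 lower without HFD 2 and HFD 5.

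Complement and coagulation genes, of the plasma cascades of defence and clotting, were more often lower as well. Of 41 tested complement genes 14 were lower and 1 higher (median -0.09, 0.33 on library totals, where 6 were lower and 12 higher), and of 33 coagulation and fibrinolysis genes 14 were lower and 2 higher (median -0.32, 0.11 on library totals, where 5 were lower and 10 higher). Without HFD 2 and HFD 5, 6 and 5 were lower. C8b, a chain of the membrane attack complex, fell from 746 ± 117 to 347 ± 24.0 CPM (BH-adjusted p by edgeR = 0.000151), and Proz, the vitamin K-dependent protein Z, from 531 ± 53.7 to 271 ± 25.8 CPM (BH-adjusted p by edgeR = 0.00026). F9, the haemophilia B factor, fell by 0.91 (SE 0.17, BH-adjusted p by edgeR = 0.00247) and Serpinc1, antithrombin, fell by 0.99 (SE 0.16, BH-adjusted p by edgeR = 0.000848), so clotting factors and an inhibitor of clotting were both lower.

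Genes of the growth hormone and IGF axis were more often lower than higher. Of 18 tested members 7 were lower and 1 higher, with a median of -0.52 (-0.11 on library totals, where 6 were lower and 6 higher), and without HFD 2 and HFD 5 the numbers were 5 and 1. Igf1 measured 960, 491, 538, 860 and 533 CPM in CON and 166, 92.3, 68.1, 254 and 56.4 CPM in HFD. Groups did not overlap, and Igf1 fell by 2.41 (SE 0.44, BH-adjusted p by edgeR = 0.00209). Igfals, which holds IGF1 in the blood, fell by 2.55 (SE 0.58, BH-adjusted p by edgeR = 0.00782; not called without HFD 2 and HFD 5) and Socs2, a feedback inhibitor induced by growth hormone, by 2.42 (SE 0.39, BH-adjusted p by edgeR = 0.000848). The receptor Ghr went from 898 ± 193 to 398 ± 124 CPM (BH-adjusted p by edgeR = 0.0186; 0.0514 without HFD 2, and 0.00188 to 0.153 over all alternatives tried). The only member higher was Igfbp2, an IGF-binding protein, at 13.1, 96.4, 39.0, 9.49 and 118 CPM in CON and 226, 230, 490, 360 and 166 CPM in HFD, a rise of 2.42 (SE 0.64, BH-adjusted p by edgeR = 0.0175). Igfbp1, which fasting and stress induce, did not pass at 1.87 (SE 0.65, BH-adjusted p by edgeR = 0.0543).

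Growth factor ligands changed one by one. Of 24 tested FGF, EGF, VEGF, PDGF and HGF family ligands 5 were higher and 4 lower (median 0.17, 0.58 on library totals; 2 higher and 1 lower without HFD 2 and HFD 5); 3 were higher without CON 2, CON 5 or HFD 5. The 2 neuregulins, ligands of the ERBB receptors, moved in opposite directions. Nrg1 measured 1.70, 2.59, 4.94, 3.19 and 6.13 CPM in CON and 11.3, 22.3, 30.4, 10.9 and 17.3 CPM in HFD, with groups that did not overlap (log2 fold change 2.31, SE 0.35, BH-adjusted p by edgeR = 0.000565). Nrg4, a hormone-like ligand, measured 13.8, 56.1, 82.4, 27.1 and 64.0 CPM in CON and 15.4, 1.4, 5.76, 0.682 and 3.59 CPM in HFD. HFD 1 lay within the CON range and the other 4 HFD libraries below it (log2 fold change -3.17, SE 0.67, BH-adjusted p by edgeR = 0.0052). Pdgfa, a mitogen of mesenchymal cells, rose by 1.54 (SE 0.23, BH-adjusted p by edgeR = 0.000477).

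Of 30 TGF-beta superfamily ligands and antagonists, 3 were higher and 3 lower (median -0.10, 0.31 on library totals; 1 higher and 0 lower without HFD 2 and HFD 5). Of 17 tested TGF-beta superfamily receptors 1 was higher and 1 lower (median -0.20, 0.22 on library totals; 0 of either without HFD 2 and HFD 5). Fst, follistatin, which traps activins, was near silence in CON and is described with those genes below. Among 34 hepatokines, hormone-like liver products, 7 were lower and 4 higher (median -0.32, 0.10 on library totals; 2 higher and 6 lower without HFD 2 and HFD 5); Tsku, tsukushi, fell from 559 ± 192 to 75.1 ± 68.6 CPM (BH-adjusted p by edgeR = 0.00785), whereas Fgf21, Gdf15, Lect2 and Inhbe did not pass, at 0.14 (SE 0.45), -0.01 (SE 0.77), -0.25 (SE 0.19) and -0.38 (SE 0.35). Of 7 angiopoietins and related proteins 1 was lower and 0 higher (median -0.41, 0 on library totals; 0 of either without HFD 2 and HFD 5), and Angptl4, an inhibitor of lipoprotein lipase, missed the threshold at -1.89 (SE 0.65, BH-adjusted p by edgeR = 0.0507).

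Cytokines and chemokines, the signals among immune cells, were more often higher. Of 31 tested interleukins and other cytokines 8 were higher and 0 lower (median 1.06, 1.49 on library totals; 5 higher without HFD 5), and of 22 chemokines 8 were higher and 1 lower (median 1.16, 1.59 on library totals; 4 or 5 higher without HFD 2, HFD 5 or any of CON 3 to 5). Without HFD 2 and HFD 5 together, 1 cytokine and 0 chemokines were higher. The 1 was Clcf1, an IL-6 family cytokine, at 4.04, 3.21, 5.04, 1.77 and 4.43 CPM in CON and 13.6, 15.5, 22.0, 26.6 and 15.5 CPM in HFD. Its rise, 2.33 (SE 0.28, BH-adjusted p by edgeR = 0.000104), was present in all 5 HFD libraries, HFD 4 included. The chemokine Cxcl1, a neutrophil attractant, was at 2.22 ± 0.998 CPM in CON and at 15.7, 68.7, 20.5, 3 and 156 CPM in HFD, where HFD 4 lay within the CON range (BH-adjusted p by edgeR = 0.0106). Lcn2, lipocalin 2, an iron-trapping acute-phase protein of neutrophils and hepatocytes, measured 2.78, 17.7, 4.75, 3.10 and 3.41 CPM in CON and 86.6, 811, 169, 12.1 and 1608 CPM in HFD (BH-adjusted p by edgeR = 0.0114). Both calls were lost without HFD 2 and HFD 5. Cxcl12, the homing chemokine of resting liver, went from 511 ± 276 to 164 ± 81.6 CPM (BH-adjusted p by edgeR = 0.00987; not called without HFD 2 and HFD 5).

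Matrix genes changed little as a group. Of 28 collagens 1 was higher and 1 lower (median 0.00, 0.43 on library totals; 1 higher and 1 lower without HFD 2 and HFD 5), and of 53 matrix glycoproteins and proteoglycans 2 were higher and 5 lower (median 0.20, 0.64 on library totals; 0 higher and 5 lower without HFD 2 and HFD 5). Lama3, a laminin chain of epithelial basement membranes, fell from 35.0 ± 4.40 to 8.54 ± 2.47 CPM (BH-adjusted p by edgeR = 7.46e-06) and Fn1, fibronectin, which hepatocytes also secrete into plasma, by 1.16 (SE 0.23, BH-adjusted p by edgeR = 0.0039). Of 49 metalloproteases and inhibitors 8 were higher and 1 lower (median 0.19, 0.62 on library totals; 1 higher and 2 lower without HFD 2 and HFD 5), with 2 to 4 higher without HFD 2, HFD 5 or any of CON 2 to 5; Adam8, a protease of leukocytes, rose by 2.02 (SE 0.40, BH-adjusted p by edgeR = 0.0036).

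Of 35 Wnt pathway genes 3 were higher and 3 lower (median 0.07, 0.49 on library totals; 1 higher and 1 lower without HFD 2 and HFD 5). Lgr4, a receptor of R-spondins that strengthens Wnt signals around the central vein, fell from 138 ± 28.1 to 41.0 ± 11 CPM, with no overlap (BH-adjusted p by edgeR = 0.000138). Wnt9b, a ligand that venous endothelium of the liver secretes, rose from 0.856 ± 0.423 to 3.79 ± 1.38 CPM (BH-adjusted p by edgeR = 0.00319).

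Among receptor tyrosine kinases, growth factor receptors at the cell surface, 4 of 37 tested members were lower and 2 higher (median -0.02, 0.40 on library totals; 1 higher and 2 lower without HFD 2 and HFD 5); 8 were lower without HFD 4. Egfr measured 522, 221, 252, 339 and 254 CPM in CON and 81.3, 58.2, 41.6, 168 and 45.2 CPM in HFD. HFD 4 was the highest of its group but still below every CON library, and Egfr fell by 2.01 (SE 0.35, BH-adjusted p by edgeR = 0.00161). Its own ligand Egf went from 85.2 ± 27.4 to 39.9 ± 10.3 CPM with overlap (BH-adjusted p by edgeR = 0.014; not called without HFD 2 and HFD 5). Tyro3, a receptor for ligands on dying cells, rose by 1.52 (SE 0.26, BH-adjusted p by edgeR = 0.0013). The insulin receptor Insr and the HGF receptor Met did not pass, at -0.38 (SE 0.30) and -0.53 (SE 0.25).

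G protein-coupled receptors, which sense hormones and transmitters, were called no more often than all tested genes, in both directions. Of 117 tested members 11 were lower and 10 higher (median 0.39, 0.82 on library totals; 3 higher and 7 lower without HFD 2 and HFD 5), with 7 lower without CON 2 or CON 4, and 5 or 6 higher without CON 3, CON 5 or HFD 5. Adgrg2, an adhesion receptor best known from the epididymis, measured 0.987, 1.25, 0.190, 0.798 and 1.53 CPM in CON and 11.3, 30.6, 39.1, 29.5 and 16.0 CPM in HFD. Every HFD library was several times above the highest CON library, a rise of 4.71 (SE 0.49, BH-adjusted p by edgeR = 3.16e-05). Adra1b, the adrenaline receptor that drives hepatic glycogen breakdown, measured 67.9, 110, 108, 89.1 and 101 CPM in CON and 26.9, 21.6, 36.9, 23.8 and 38.9 CPM in HFD. It fell by 1.68 (SE 0.21, BH-adjusted p by edgeR = 0.000143) with no overlap. Ednra, an endothelin receptor, fell by 2.46 (SE 0.52, BH-adjusted p by edgeR = 0.00551), and Gpr146, a receptor of hepatocytes, by 1.08 (SE 0.17, BH-adjusted p by edgeR = 0.000697). The vasopressin receptor Avpr1a did not pass at -0.62 (SE 0.38).

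Cytokine receptors split by direction. Of 40 tested members 10 were higher and 6 lower (median 0.82, 1.24 on library totals; 2 higher and 2 lower without HFD 2 and HFD 5). The higher number was 2 to 6 without CON 1, HFD 2, HFD 3, HFD 5 or any of CON 2 to 5, and the lower number 3 without HFD 2. The lower members included Il6st, the shared signal chain gp130 of the IL-6 family, which fell by 0.84 (SE 0.16, BH-adjusted p by edgeR = 0.00278; not called on library totals), and Il1rap, a chain of the IL-1 receptor, which fell by 1.07 (SE 0.20, BH-adjusted p by edgeR = 0.00209). Il1r1, the binding chain of the same receptor, rose by 0.84 (SE 0.22, BH-adjusted p by edgeR = 0.0167). Il3ra, a chain of the IL-3 receptor, rose from 2.70 ± 0.382 to 7.61 ± 2.40 CPM (BH-adjusted p by edgeR = 0.00427). The leptin receptor Lepr did not pass at -0.28 (SE 0.42).

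In the TNF receptor family, 10 of 21 tested members were called higher and 0 lower, with a median of 1.59 (2.00 on library totals). Without HFD 2 and HFD 5 only Fas, the death receptor, was called, at 14.1, 5.53, 3.14, 3.55 and 5.88 CPM in CON and 22.9, 36.5, 34.9, 13.4 and 43.7 CPM in HFD. HFD 4 lay just below CON 1 and the other HFD libraries above all of CON (log2 fold change 2.23, SE 0.41, BH-adjusted p by edgeR = 0.00231). Tnfrsf14, a receptor of lymphocytes and epithelia, was at 1.38 ± 0.8 CPM in CON and at 12.4, 37.6, 21.8, 3.20 and 34.9 CPM in HFD, with no overlap (BH-adjusted p by edgeR = 0.00686).

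Surface proteins of leukocytes were more often higher than lower, and most of these calls were lost without HFD 2 and HFD 5. Over all genes, 409 of 1322 higher calls were also made without both, a larger share than in any list of this paragraph. Of 59 Fc, immunoglobulin-like and B7 family receptors 14 were higher and 3 lower (median 1.06, 1.49 on library totals; 4 to 7 higher without HFD 2, HFD 5 or any of CON 2 to 5, and 2 without HFD 2 and HFD 5 together). Of 47 scavenger and pattern recognition receptors 11 were higher and 1 lower (median 0.81, 1.24 on library totals; 2 higher and 1 lower without HFD 2 and HFD 5; 5 or 6 higher without HFD 2, HFD 5 or any of CON 3 to 5), and of 58 lectins 10 were higher and 5 lower (median 0.60, 1.03 on library totals; 1 higher and 1 lower without HFD 2 and HFD 5; 5 higher without HFD 5). Cd276, the B7-H3 molecule, was at 6.73 ± 3.18 CPM in CON and at 16.4, 97.2, 38.3, 20.1 and 80.9 CPM in HFD, with no overlap (BH-adjusted p by edgeR = 0.00131), while Icoslg, another B7 molecule, fell by 1.27 (SE 0.19, BH-adjusted p by edgeR = 0.000624). The 1 lower scavenger receptor was Lrp1, the hepatocyte receptor for remnants and protease complexes, which fell from 1090 ± 282 to 432 ± 85.9 CPM (BH-adjusted p by edgeR = 0.000903). Of 32 tetraspanins and MS4A proteins 4 were higher and 0 lower (median 1.01, 1.44 on library totals; 0 higher and 0 lower without HFD 2 and HFD 5; 1 or 2 higher without HFD 2, HFD 5 or any of CON 2 to 5, and 7 without HFD 1 or HFD 4). The macrophage and T cell marker sums of these libraries are given above, and their part in these counts was not tested.

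Genes of epithelial adhesion were more often higher than lower. Of 45 claudins, connexins and other junction proteins 10 were higher and 3 lower (median 0.25, 0.66 on library totals), 4 and 3 without HFD 2 and HFD 5. Epcam, an adhesion molecule of bile duct cells and of hepatocyte precursors, measured 19.4, 15.1, 15.2, 14.6 and 21.0 CPM in CON and 41.8, 59.5, 54.2, 51.8 and 58.2 CPM in HFD. The groups were tight and apart, and Epcam rose by 1.64 (SE 0.16, BH-adjusted p by edgeR = 1.95e-05). Itga6, a laminin-binding integrin chain, rose by 1.34 (SE 0.18, BH-adjusted p by edgeR = 0.000234); of 22 integrins 2 were higher and 0 lower (median 0.52, 0.93 on library totals; 1 higher and 0 lower without HFD 2 and HFD 5). The connexin Gjc3 fell from 15.5 ± 6.24 to 1.49 ± 0.353 CPM (BH-adjusted p by edgeR = 9.17e-05).

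**Figure D4:**
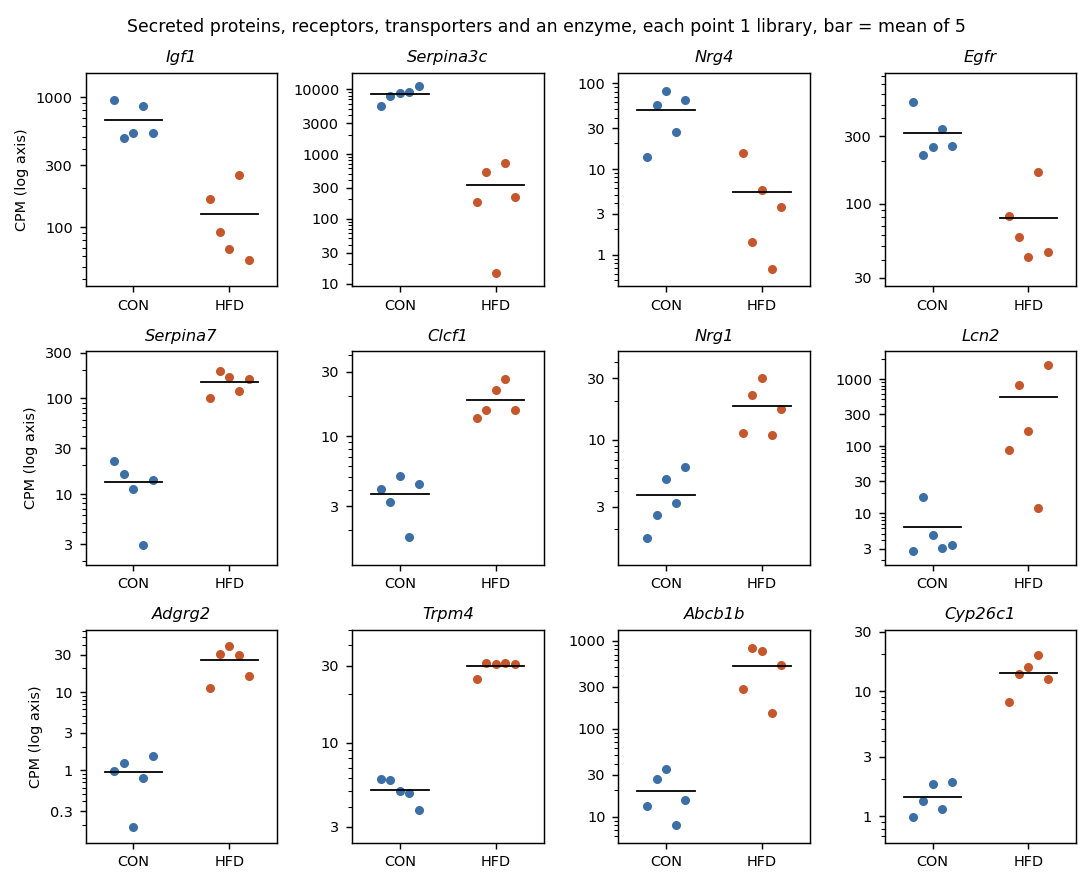
CPM (log axis) of 12 genes of secreted proteins, receptors, transporters and enzymes in the 5 CON and 5 HFD libraries; points are libraries and bars are group means. Trpm4 (5.11 to 29.7 CPM) and Adgrg2 separate the groups fully, whereas Nrg4 and Lcn2 overlap through 1 HFD library each.

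Transporters of the solute carrier families, which move nutrients, ions and drugs across membranes, were more often lower. Of 247 tested members 54 were lower and 27 higher, with a median of -0.14 (0.28 on library totals, where 29 were lower and 70 higher), and without HFD 2 and HFD 5 the numbers were 32 and 7. The 27 became 15 or 16 without CON 3, CON 5, HFD 2 or HFD 5. Slc46a1, the proton-coupled folate transporter, measured 50.1, 43.8, 39.5, 51.3 and 45.1 CPM in CON and 10.8, 11, 12.2, 12.7 and 17.3 CPM in HFD. Both groups were narrow and it fell by 1.84 (SE 0.14, BH-adjusted p by edgeR = 1.75e-06). Slc13a4, a sulfate carrier, fell from 38.5 ± 14.0 to 3.79 ± 2.29 CPM (BH-adjusted p by edgeR = 0.000436), the mitochondrial carrier Slc25a30 fell by 2.90 (SE 0.31, BH-adjusted p by edgeR = 3.9e-05) and Slc22a7, the organic anion transporter OAT2, fell by 2.02 (SE 0.24, BH-adjusted p by edgeR = 7.94e-05). The copper importer Slc31a1 fell by 1.57 (SE 0.23, BH-adjusted p by edgeR = 0.000482) and the thiamine importer Slc19a2 fell by 1.49 (SE 0.24, BH-adjusted p by edgeR = 0.000958). Among the rises, Slc10a2, the ileal type bile acid importer, went from 3.78 ± 1.06 to 13.5 ± 3.33 CPM (BH-adjusted p by edgeR = 0.00155) and the phosphate importer Slc34a2 from 7.60 ± 5.20 to 37.4 ± 23.3 CPM (BH-adjusted p by edgeR = 0.00345).

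Of 44 ABC transporters, pumps driven by ATP, 7 were higher and 6 lower (median -0.16, 0.26 on library totals; 4 higher and 0 lower without HFD 2 and HFD 5; 4 higher without CON 5 or HFD 2, and 2 or 3 lower without HFD 2, HFD 5 or any of CON 2 to 5). Abcb1b, a rodent form of the drug pump P-glycoprotein, measured 13.2, 26.5, 35.2, 8.07 and 15.3 CPM in CON and 286, 841, 767, 153 and 531 CPM in HFD. The lowest HFD library was well above the highest CON library, a rise of 4.71 (SE 0.50, BH-adjusted p by edgeR = 4.1e-05). Abcc3, a basolateral exporter of bile acids and conjugates, rose by 3.15 (SE 0.35, BH-adjusted p by edgeR = 6.05e-05). Of 93 ion channel and aquaporin genes 13 were higher and 9 lower (median 0.15, 0.56 on library totals; 3 higher and 4 lower without HFD 2 and HFD 5), with 5 to 8 higher without HFD 2, HFD 5 or any of CON 2 to 5, and 2 to 5 lower without any library but CON 1 and HFD 4. Trpm4, a cation channel opened by calcium, measured 5.92, 5.89, 5.04, 4.88 and 3.83 CPM in CON and 24.7, 31.3, 30.6, 31.3 and 30.5 CPM in HFD. It rose by 2.54 (SE 0.14, BH-adjusted p by edgeR = 2.61e-08), with little spread in either group.

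Drug- and steroid-metabolising cytochromes P450 were more often lower than higher. Of 34 tested genes of families 1 to 3, 12 were lower and 3 higher (median -0.35, 0.08 on library totals, where 9 were lower and 9 higher), 9 and 2 without HFD 2 and HFD 5. Cyp2c11, the main male-specific P450 of rat liver and a target of growth hormone pulses, measured 2313, 3585, 4026, 2993 and 2760 CPM in CON and 383, 147, 523, 1261 and 142 CPM in HFD. Groups did not overlap and it fell by 2.67 (SE 0.54, BH-adjusted p by edgeR = 0.004). Reads of these P450 genes may be shared among close copies. Of 24 genes of families 4 and above, 6 were lower and 4 higher, with and without HFD 2 and HFD 5 (median -0.12, 0.31 on library totals). Cyp4a8, a fatty acid hydroxylase, fell from 22.0 ± 11.6 to 1.23 ± 1.29 CPM (BH-adjusted p by edgeR = 0.00104).

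The enzymes that clear retinoic acid, Cyp26a1 and Cyp26c1, rose together. Cyp26a1 measured 3.05, 2.85, 2.66, 1.33 and 1.02 CPM in CON and 9.78, 23.5, 25.4, 23.7 and 20.1 CPM in HFD. Cyp26c1 measured 0.987, 1.34, 1.81, 1.15 and 1.87 CPM in CON and 8.16, 13.7, 15.7, 19.4 and 12.5 CPM in HFD. Neither gene had overlapping groups, and the log2 fold changes were 3.23 (SE 0.36, BH-adjusted p by edgeR = 5.07e-05) and 3.27 (SE 0.27, BH-adjusted p by edgeR = 2.89e-06). Cyp26a1 is a textbook target of the retinoic acid receptors, which bind direct repeats of a half-site. The 250 bases before each start in the RefSeq table of GRCr8 were therefore searched on both strands for the half-sites AGGTCA and AGTTCA repeated in the same direction with 5 bases between. Of 27457 windows, 10 (0.0364%) held such a repeat. The Cyp26a1 window did, on the reverse strand, ending 75 bases before the start, shown in capitals at chr1:244883572-244883821 (plus strand), and the Cyp26c1 window, at chr1:244870162-244870411, did not.
Cyp26a1: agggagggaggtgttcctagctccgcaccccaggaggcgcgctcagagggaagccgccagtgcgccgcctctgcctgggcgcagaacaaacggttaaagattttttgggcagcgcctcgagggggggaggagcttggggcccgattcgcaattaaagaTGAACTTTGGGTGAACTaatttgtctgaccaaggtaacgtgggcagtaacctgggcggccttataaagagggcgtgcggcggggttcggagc
A match is a description of letters and not of binding.

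Conjugating enzymes moved both ways. Of 21 tested UDP-glucuronosyltransferases and sulfotransferases 5 were higher and 5 lower (median -0.45, -0.03 on library totals); 5 and 2 without HFD 2 and HFD 5, with 2 or 3 lower without CON 3, CON 4 or HFD 5 and 8 lower without CON 1. The 4 higher glucuronosyltransferases were all of the Ugt1a cluster, whose members share exons, so that reads may be split among them. Ugt1a1, the bilirubin enzyme, measured 249, 281, 269, 194 and 311 CPM in CON and 808, 680, 943, 1273 and 431 CPM in HFD, with no overlap (log2 fold change 1.66, SE 0.34, BH-adjusted p by edgeR = 0.00401). The sulfotransferase Sult1c3 fell by 2.72 (SE 0.52, BH-adjusted p by edgeR = 0.00283). Of 22 glutathione transferases 2 were higher and 1 lower (median -0.10, 0.32 on library totals; 0 higher and 0 lower without HFD 2 and HFD 5). Of 25 carboxylesterases and amidases 8 were lower and 2 higher (median -0.44, -0.01 on library totals; 1 higher and 3 lower without HFD 2 and HFD 5; 3 lower without CON 3 and 5 without CON 4 or HFD 2). Nat8, an N-acetyltransferase, measured 24.9, 45.7, 46.8, 45.5 and 45 CPM in CON and 2.01, 0.349, 0.295, 1.09 and 1.90 CPM in HFD, and so fell by 5.18 (SE 0.41, BH-adjusted p by edgeR = 2.11e-06). Ces2, a carboxylesterase, rose from 0.677 ± 0.332 to 9.24 ± 5 CPM (BH-adjusted p by edgeR = 6.05e-05).

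Among oxidoreductases and enzymes of amino acid breakdown, more members were lower than higher on the TMM scale. Of 46 aldehyde, alcohol and aldo-keto dehydrogenases and related oxidases 15 were lower and 2 higher (median -0.52, -0.10 on library totals; 1 higher and 5 lower without HFD 2 and HFD 5; 8 or 9 lower without CON 4, HFD 2 or HFD 5), and of 37 short-chain dehydrogenases 11 were lower and 1 higher (median -0.40, 0.01 on library totals, where 6 were lower and 9 higher; 1 higher and 6 lower without HFD 2 and HFD 5). Aox3, an aldehyde oxidase, measured 253, 82.0, 147, 329 and 168 CPM in CON and 27.5, 12.4, 2.14, 18.6 and 9.83 CPM in HFD, and so fell by 3.79 (SE 0.52, BH-adjusted p by edgeR = 0.00027) with no overlap. Hsd17b6, a hydroxysteroid dehydrogenase, fell by 1.87 (SE 0.16, BH-adjusted p by edgeR = 5.29e-06). Of 66 tested genes of amino acid breakdown and the urea cycle 21 were lower and 0 higher (median -0.52, -0.11 on library totals, where 5 were lower and 7 higher). The 21 became 9 to 11 without CON 2, CON 3, CON 4, HFD 2, HFD 3 or HFD 5, and 6 without HFD 2 and HFD 5 together. Csad, which makes the taurine used to conjugate bile acids, fell by 2.00 (SE 0.34, BH-adjusted p by edgeR = 0.00144) and Glud1, glutamate dehydrogenase, by 1.15 (SE 0.23, BH-adjusted p by edgeR = 0.0035).

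Of 51 genes of glucose uptake, glycolysis and gluconeogenesis 9 were lower and 5 higher (median -0.19, 0.23 on library totals; 0 higher and 3 lower without HFD 2 and HFD 5; 1 to 3 higher without any library but CON 4 and HFD 4). Khk, which phosphorylates fructose, fell from 257 ± 35.2 to 106 ± 26.8 CPM (BH-adjusted p by edgeR = 0.00238) and Pklr, liver pyruvate kinase, from 145 ± 59.9 to 49.2 ± 13 CPM (BH-adjusted p by edgeR = 0.00231).

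The list of endoplasmic reticulum chaperones, which fold secreted proteins, also holds factors that return faulty ones for degradation, and a regulator. Its calls on the TMM scale were all lower. Of 33 tested members 15 were lower and 18 were not called (median -0.48, -0.05 on library totals, where 6 were lower and 1 higher). The 15 became 8 without CON 3, without CON 4 and without HFD 2 and HFD 5 together. Xbp1, the transcription factor that drives this set, measured 783, 478, 517, 375 and 673 CPM in CON and 295, 319, 254, 244 and 283 CPM in HFD. Groups did not overlap and Xbp1 fell by 1.02 (SE 0.21, BH-adjusted p by edgeR = 0.004). The degradation factor Sel1l fell by 1.28 (SE 0.22, BH-adjusted p by edgeR = 0.00119), Derl2 of the same route fell by 0.73 (SE 0.12, BH-adjusted p by edgeR = 0.00115), and the co-chaperone Dnajc3 fell by 0.63 (SE 0.14, BH-adjusted p by edgeR = 0.00745; not called on library totals or without HFD 2 and HFD 5). Hspa5, the main chaperone BiP, did not pass at -0.39 (SE 0.22). The ER stress element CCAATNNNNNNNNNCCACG, with N any base, was searched on both strands in the same 250-base windows of GRCr8 and stood in 21 of 27457 (0.0765%). It stood in 4 of the 13 called members with a window, Xbp1, Dnajc3, Ero1b and Canx (whose call ended without CON 3 or CON 4, at BH-adjusted p by edgeR = 0.0525 and 0.0554, with 0.000205 to 1 over all alternatives), and in 5 of the 13 members not called, Hspa5, Hsp90b1, Calr, Creld2 and Derl3, so holding the element did not separate the called members from the others. The windows of Xbp1 (chr14:84604373-84604622, plus strand) and Dnajc3 (chr15:102432417-102432666, plus strand) are shown with the element in capitals.
Xbp1: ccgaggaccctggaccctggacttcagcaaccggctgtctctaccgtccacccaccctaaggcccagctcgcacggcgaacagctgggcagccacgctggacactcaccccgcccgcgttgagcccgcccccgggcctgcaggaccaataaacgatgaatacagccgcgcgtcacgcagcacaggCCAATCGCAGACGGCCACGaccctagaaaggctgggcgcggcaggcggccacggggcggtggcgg
Dnajc3: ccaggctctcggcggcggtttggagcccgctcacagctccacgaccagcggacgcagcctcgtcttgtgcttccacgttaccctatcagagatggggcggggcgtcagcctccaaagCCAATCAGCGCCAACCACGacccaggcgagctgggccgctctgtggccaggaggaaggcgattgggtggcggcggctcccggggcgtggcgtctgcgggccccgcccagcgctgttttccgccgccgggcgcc

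Among heat shock proteins and respiratory chain subunits the calls on the TMM scale were lower as well, and few ribosomal proteins were called. Of 32 heat shock genes 7 were lower and 0 higher (median -0.37, 0.05 on library totals, where 3 were lower and 3 higher; 0 higher and 1 lower without HFD 2 and HFD 5; 2 to 4 lower without any library but CON 1 and HFD 1), of which Hsph1 went from 184 ± 67.9 to 71.2 ± 30.2 CPM (BH-adjusted p by edgeR = 0.00676; overlapping, and not called without HFD 2 and HFD 5). Of 76 nuclear-coded respiratory chain subunits 24 were lower and 0 higher (median -0.32, 0.10 on library totals, where 0 were lower and 8 higher). The 24 became 9 to 12 without HFD 5 or any of CON 2 to 5, and 5 without HFD 2 and HFD 5 together. The falls were small, as for Ndufa8 of complex I, at 53.5, 56.2, 61.2, 64.1 and 59.8 CPM in CON and 39.8, 35.0, 36.1, 34.8 and 42.9 CPM in HFD (log2 fold change -0.64, SE 0.10, BH-adjusted p by edgeR = 0.000887). Of 84 cytosolic ribosomal proteins 0 were higher and 1 lower, with a median of 0.13 on the TMM scale, but on library totals the median was 0.54 and 66 were called higher. Of 73 mitochondrial ribosomal proteins 2 were higher and 5 lower (median -0.12, 0.30 on library totals; 0 higher and 1 lower without HFD 2 and HFD 5; 1 or 2 lower without any library but CON 1 and HFD 4), and of 38 proteasome subunits 3 were higher and 0 lower (median 0.07, 0.49 on library totals; 0 higher and 0 lower without HFD 2 and HFD 5).

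Metallothioneins, small proteins that bind zinc and copper, rose together. Mt1 measured 201, 457, 102, 189 and 205 CPM in CON and 805, 828, 913, 534 and 1214 CPM in HFD. Mt2A measured 100, 218, 41.1, 86.3 and 95.8 CPM in CON and 669, 729, 842, 288 and 988 CPM in HFD. Each HFD library was above each CON library for both, with rises of 1.89 (SE 0.35, BH-adjusted p by edgeR = 0.0024) and 2.70 (SE 0.41, BH-adjusted p by edgeR = 0.000634); the copies are alike and reads may be shared. Metallothionein genes are textbook targets of the zinc sensor MTF1, which binds metal response elements. The element, searched as TGCACNC or TGCGCNC on both strands, stood in 21.2% of the 27457 windows of 250 bases and at least 4 times in 0.277%. It stood 6 times in the Mt1 window (chr19:10832976-10833225, minus strand) and 4 times in the Mt2A window (chr19:10838709-10838958, minus strand), here in capitals.
Mt1: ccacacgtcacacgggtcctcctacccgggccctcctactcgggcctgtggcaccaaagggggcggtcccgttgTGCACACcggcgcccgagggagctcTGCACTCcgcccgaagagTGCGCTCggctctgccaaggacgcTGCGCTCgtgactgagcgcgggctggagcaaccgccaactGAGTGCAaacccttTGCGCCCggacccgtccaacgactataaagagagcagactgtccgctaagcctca
Mt2A: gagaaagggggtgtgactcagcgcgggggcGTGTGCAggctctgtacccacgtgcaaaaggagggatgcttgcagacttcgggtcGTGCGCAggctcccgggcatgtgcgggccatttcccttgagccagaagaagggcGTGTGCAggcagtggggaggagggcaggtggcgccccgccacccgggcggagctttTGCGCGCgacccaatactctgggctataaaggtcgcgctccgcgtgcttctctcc

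In all, 11 of 24 tested annexins, S100 proteins and metallothioneins were higher and 0 lower (median 1.23, 1.64 on library totals), 7 without HFD 2 and HFD 5. The annexins Anxa6 and Anxa7, which bind membranes with calcium, rose by 0.90 (SE 0.13, BH-adjusted p by edgeR = 0.000404) and 1.81 (SE 0.29, BH-adjusted p by edgeR = 0.000794). The cytoskeleton moved alike, with 19 of 75 keratins, tubulins and actin-binding proteins higher and 1 lower (median 0.56, 0.98 on library totals). The 19 became 8 to 12 without HFD 2, HFD 5 or any of CON 2 to 5, and 6 without HFD 2 and HFD 5 together. Tmsb10, a thymosin that holds free actin, measured 9.78, 10.3, 6.18, 6.30 and 8.09 CPM in CON and 48.9, 298, 183, 24.5 and 210 CPM in HFD. The HFD values spread widely but none reached down to CON (log2 fold change 4.23, SE 0.72, BH-adjusted p by edgeR = 0.00132). Tpm1, a tropomyosin, rose by 1.05 with little spread (SE 0.11, BH-adjusted p by edgeR = 4.25e-05), and Actg1, gamma-actin, by 1.84 (SE 0.41, BH-adjusted p by edgeR = 0.00745). Of 33 proton pump and cathepsin genes of the lysosome 6 were higher and 3 lower (median 0.05, 0.47 on library totals; 2 higher and 3 lower without HFD 2 and HFD 5; 2 or 3 higher without CON 2, CON 3, CON 5, HFD 2 or HFD 5), among them Ctsl, cathepsin L, up by 1.31 (SE 0.23, BH-adjusted p by edgeR = 0.00153).

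Stress programs and the cell cycle were called in part. Of 39 NRF2 and glutathione genes 8 were higher and 3 lower (median 0.03, 0.45 on library totals; 3 higher and 1 lower without HFD 2 and HFD 5; 4 or 5 higher without CON 2, CON 3, CON 5, HFD 2 or HFD 5). The iron store chain Ftl1 rose by 0.68 (SE 0.15, BH-adjusted p by edgeR = 0.00662), whereas Gclm, a subunit of the enzyme that starts glutathione synthesis, fell by 1.03 (SE 0.17, BH-adjusted p by edgeR = 0.00103). Of 32 ATF4 amino acid response genes 5 were higher and 3 lower (median 0.13, 0.54 on library totals; 1 higher and 2 lower without HFD 2 and HFD 5; 1 to 3 higher without CON 1, HFD 2, HFD 5 or any of CON 2 to 5). Asns, asparagine synthetase, measured 3.59, 0.981, 0.285, 2.13 and 0.852 CPM in CON and 8.55, 23.1, 14.8, 8.11 and 26 CPM in HFD (log2 fold change 3.35, SE 0.51, BH-adjusted p by edgeR = 0.000641), while Shmt2, a mitochondrial folate enzyme of the same list, fell by 1.06 (SE 0.14, BH-adjusted p by edgeR = 0.00025). Of 53 mitotic and DNA replication genes 1 was higher and 1 lower (median 0.62, 1.03 on library totals; 1 higher and 1 lower without HFD 2 and HFD 5). The higher was Kif11, a spindle motor, at 1.48 ± 0.484 and 6.51 ± 1.73 CPM (BH-adjusted p by edgeR = 0.00159), and Mki67, the usual proliferation marker, did not pass at 1.11 (SE 0.85). Of 42 type I interferon-stimulated genes 6 were higher and 3 lower (median -0.08, 0.34 on library totals; 0 higher and 0 lower without HFD 2 and HFD 5), with 1 to 3 higher without HFD 2, HFD 5 or any of CON 2 to 5.

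Genes near silence in chow liver, with a CON mean under 0.5 CPM, were called higher in part. Of 8581 such genes 410 had enough counts in HFD or ZXD for testing, and 132 of those were called higher; since testing required counts elsewhere, these 132 are a description of what appeared and not a share of all silent genes. The number was 82 without HFD 2, 81 without HFD 5 and 36 without both. With the CON and HFD libraries alone, where ZXD counts did not help a gene into the test, it was 45. In 71 of the 132 the groups did not overlap, a share near that of all genes called higher (724 of 1322). A mean of at least 2 CPM in HFD was reached by 49. HFD 2 and HFD 5 together held a median of 58.4% of the HFD counts of these 132 genes (10.1% to 95.5%), against 39.4% over all tested genes. The 132 were taken because they were called higher in HFD. The share was not computed over all genes called higher, so the contrast does not set near-silent genes apart. The 5 genes at 0 in every CON library were Cd8b, Fcer2, Mmp27, Pbsn and Sult2a2. Against the floor of 3 counts per CON library, Mmp27, a matrix metalloprotease, was at least 18.6-fold higher and Cd8b, a chain of the T cell coreceptor, at least 13.5-fold higher. Sult2a2, a steroid sulfotransferase, was at least 5.22-fold higher, Fcer2 at least 2.1-fold and Pbsn at least 1.65-fold. Without HFD 2 and HFD 5, Sult2a2 was the only one of the 5 still called.

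Some of the near-silent genes are known from activated macrophages. Irg1, the itaconate-making enzyme of activated macrophages, had 16 counts over the 5 CON libraries and 3197 over the 5 HFD libraries, at 28.9, 106, 26.2, 0.136 and 59.3 CPM. HFD 4 lay within the CON range of 0.0852 to 0.538 CPM. The macrophage genes Pla2g7 and Trem2 had 18 and 3 counts in CON and 1353 and 351 in HFD, of which HFD 2 and HFD 5 held 92.6% and 95.2%. The calls of Irg1, Pla2g7 and Trem2 were lost without HFD 2 and HFD 5 and by limma voom. The macrophage marker sums of the same libraries, 3203 and 2287 CPM, are given above.

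Other near-silent genes were higher in all HFD libraries. HFD 2 and HFD 5 held 37% of the HFD counts of Slc16a5, 10.1% of Kcnj11, 70.2% of Rprm, 64.3% of Gpx2, 47.3% of Fst and 15% of Sdr16c6. Slc16a5, a monocarboxylate carrier, measured 0.0897, 0.268, 0.380, 0 and 0 CPM in CON and 2.20, 6.84, 8.49, 4.02 and 1.63 CPM in HFD, with 8 counts over CON and 330 over HFD (BH-adjusted p by edgeR = 0.000697). Kcnj11, the pore of the ATP-sensitive potassium channel, had 2 counts in CON and 148 in HFD, at 3.24, 0.628, 1.92, 3.89 and 0.407 CPM (BH-adjusted p by edgeR = 0.00172), and here HFD 2 and HFD 5 were the lowest. Rprm, a cell cycle arrest gene, had 20 counts in CON and 510 in HFD (BH-adjusted p by edgeR = 0.00039), and Gpx2, the gut-type glutathione peroxidase and an NRF2 target, 13 and 350 (BH-adjusted p by edgeR = 0.00257). Fst measured 0, 0.0892, 0, 0.266 and 0.0852 CPM in CON and 0.518, 6.84, 21.0, 0.341 and 11.5 CPM in HFD (BH-adjusted p by edgeR = 0.0128), so it was above CON in all 5 HFD libraries but over 1 CPM in 3 of them. Sdr16c6, a short-chain dehydrogenase, had 17 counts in CON and 867 in HFD (BH-adjusted p by edgeR = 0.00437). Limma voom did not call Fst or Sdr16c6.

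Some genes were near silence in HFD. Of 8132 genes with an HFD mean under 0.5 CPM 72 were tested and 26 were called lower, 14 of them with a CON mean of at least 2 CPM. The low-count filter used all 15 libraries, and ZXD rats ate the same feed as HFD rats. More genes near silence in CON could thus be tested (410), and the 132 and 26 called genes are not a like comparison. With the CON and HFD libraries alone they were 45 and 17, and without the filter 177 and 55. In 18 of the 26 the groups did not overlap, a share near that of all genes called lower (942 of 1436). Obp3, a male urinary lipocalin of the alpha-2u globulin family whose copies share reads, measured 6.19, 138, 642, 252 and 93.4 CPM in CON and 0.453, 0.419, 0.369, 0.886 and 0.136 CPM in HFD. CON itself spanned a wide range, but no CON library came near the HFD levels (BH-adjusted p by edgeR = 8.1e-05; not called by limma voom). Hsd11b2, which inactivates glucocorticoids, measured 7.36, 4.01, 4.37, 9.31 and 3.32 CPM in CON and 0.324, 0.140, 0.148, 0.477 and 0 CPM in HFD, with 317 and 16 counts (BH-adjusted p by edgeR = 0.000228). Sult2a1, a close relative of Sult2a2, had 133 counts in CON and 9 in HFD (BH-adjusted p by edgeR = 0.00391), so of this pair 1 was seen in CON and nearly lost and the other was at 0 in CON. The serine protease Prss32 went from 242 to 4 counts (BH-adjusted p by edgeR = 0.000385) and Gimd1, a GTPase-related gene, from 327 to 7 (BH-adjusted p by edgeR = 8.72e-05). All CON libraries had counts of these 5 genes.

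**Figure D5:**
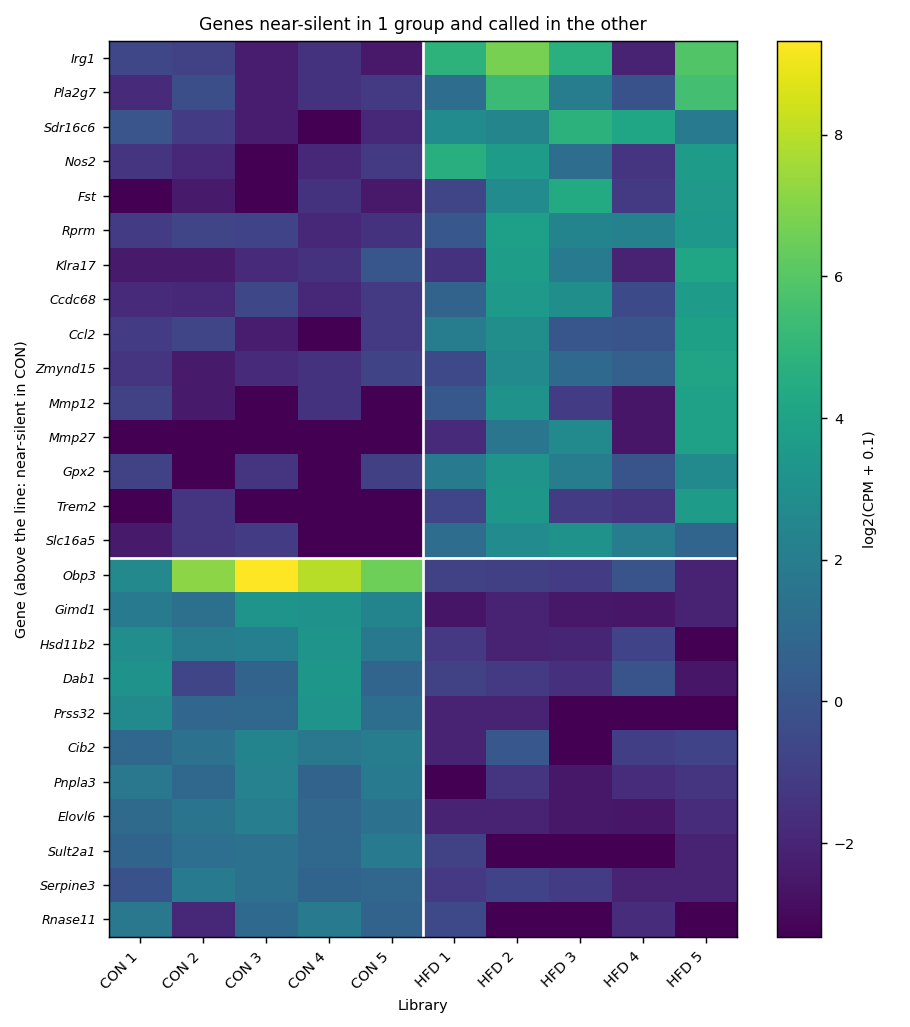
Level of genes near silence in CON (upper block) or HFD (lower block) and called in the other group, as log2(CPM + 0.1) by library. In the upper block HFD 2 and HFD 5 are bright for Irg1 (106 and 59.3 CPM), Pla2g7 and Trem2, and Slc16a5, Rprm and Sdr16c6 are raised in all HFD libraries.

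Outside the lists, the largest changes by fold included genes with no clear place in liver physiology. Rtn4rl2, a relative of the Nogo receptor, measured 11.8, 19.4, 20.6, 20.3 and 22.4 CPM in CON and 1.55, 0.768, 0.960, 1.30 and 1.36 CPM in HFD, and so fell by 3.98 (SE 0.23, BH-adjusted p by edgeR = 5.44e-08) with little spread. Car3, a carbonic anhydrase abundant in male rat liver, fell from 889 ± 475 to 27.8 ± 21.7 CPM (BH-adjusted p by edgeR = 0.000382). Stac3, an adaptor known from muscle, measured 486, 28.7, 26.1, 146 and 24.0 CPM in CON and 4.34, 0.140, 0.369, 1.02 and 0.203 CPM in HFD (BH-adjusted p by edgeR = 0.0017). The CON libraries differed among themselves by more than 10-fold and still all lay above HFD. Ubd, a ubiquitin-like protein induced by TNF and interferon gamma, was at 7.88 ± 6.40 CPM in CON and at 146, 513, 272, 28.0 and 276 CPM in HFD (BH-adjusted p by edgeR = 0.00629).

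Grouped by the letters of their symbols, families differed widely in how often members were called, against 21.0% over all tested genes. Among stems with at least 10 tested members, the stem F, 10 clotting factors and F11r, F2r and F8a1, had 0 higher and 7 lower of 13 (53.8%), and Ugt had 4 and 3 of 13 (53.8%), beside Anxa with 5 and 0 of 10 (50%), Tnfrsf with 6 and 0 of 13 (46.2%) and Cyp with 7 and 20 of 60 (45%). Cd antigens had 25 higher and 2 lower of 69 (39.1%). At the other end, none of 30 Vps endosome sorting genes, 14 Psmd proteasome regulators, 13 Lsm splicing genes and 12 Alg glycosylation genes was called in either direction, and Rab GTPases had 4 higher and 0 lower of 56.

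All 22 hepatocyte markers were tested and none was at 0, as liver calls for. Of these, 7 were lower and 0 higher (median -0.54, -0.13 on library totals), 6 without HFD 2 and HFD 5. Of 15 tested cholangiocyte markers 6 were higher and 0 lower (median 1.64, 2.05 on library totals), 2 without HFD 2 and HFD 5. These 2 were Epcam and Ggt1, an enzyme of bile duct and fetal liver cells, at 0.808, 0.624, 1.90, 0.709 and 1.53 CPM in CON and 1.62, 12.7, 17.6, 6.20 and 8.81 CPM in HFD (BH-adjusted p by edgeR = 0.00139); the duct keratin Krt7 did not pass at 1.73 (SE 1.39). Of 28 macrophage markers 13 were higher and 0 lower (median 1.72, 2.15 on library totals; 4 to 8 without HFD 2, HFD 5 or any of CON 2 to 5, and 1 without HFD 2 and HFD 5). Among the markers of resident Kupffer cells, Timd4 was at 1.05 ± 0.5 CPM in CON and at 3.17, 7.33, 9.38, 1.57 and 8.68 CPM in HFD (BH-adjusted p by edgeR = 0.00423; not called by limma voom). It was the 1 macrophage marker still called without HFD 2 and HFD 5, though HFD 4 lay within the CON range. Clec4f, Vsig4 and Marco, also resident Kupffer cell markers, did not pass, at -0.07 (SE 0.32), -1.09 (SE 0.39) and 0.90 (SE 0.82). Of 20 T and NK cell markers 11 were higher and 0 lower (median 1.73, 2.16 on library totals; 4 to 7 without any library but CON 2, HFD 3 and HFD 4, and 0 without HFD 2 and HFD 5). Of 8 neutrophil and mast cell markers 4 were higher (median 2.28, 2.70 on library totals). The 4 became 2 without HFD 2, HFD 3, HFD 5 or any of CON 2 to 5. Without HFD 2 and HFD 5 together, 1 was higher and 0 lower. Lcn2 made up most of their sum in CON 2, CON 3 and every HFD library but HFD 4, and not in CON 1, CON 4, CON 5 or HFD 4. Of 19 sinusoidal endothelial markers 1 was higher and 0 lower (median 0.10, 0.54 on library totals), and of 19 stellate cell and fibroblast markers 1 was higher and 2 lower (median 0.15, 0.58 on library totals). Of 11 B and plasma cell markers 3 were higher and 1 lower (median 1.4, 1.83 on library totals). Of 6 erythroid and platelet markers 1 was lower (median -0.03, 0.41 on library totals), and of 4 markers of pancreas, gut, fat and muscle 1 was higher (median 0.72, 1.15 on library totals). Without HFD 2 and HFD 5, 1 B cell marker was lower and no other marker of these 5 lists was called.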

How the data were processed

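Deposited tables hold read counts per gene and the FPKM values the authors made from them; per the file headers both stand side by side in each library, and the submitters' processing notes name edgeR. For the aligner, counter, strand setting, genome build and annotation the entry is "not given in the sources used here", so close copies and antisense partners may share reads. FPKM equalled count divided by length and library total within 0.01% for 100% of values above 0 and was not used further. Counts were tested with edgeR 4.0.16 in R 4.3.3 (TMM, quasi-likelihood, all 15 libraries, 12 residual degrees of freedom). Tested genes had a minimum count of 10 and a minimum total of 15 by edgeR's filter, 13163 of 21576. On simulated counts the test recovered 14.9%, 41.8% and 81.8% of genes changed 1.5-, 2- and 4-fold, with 5.15% false calls. The simulation changed a far smaller share of genes than was called here. The BH threshold depends on that share, so these rates do not give the power for the real data.

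Members and the 74 gene lists were chosen with earlier results of these data known. Genes were named by rule: the 15 largest changes each way with groups apart and at least 5 CPM, up to 4 called members per list and direction by adjusted p, the 15 near-silent genes of highest level each way with at least 2 CPM, and a set of regulators and hormones whether called or not. Outside that rule, and chosen after their values were seen, are Clock, Arntl, Nr1d1, Igfals, Tsku, Ednra, Slc13a4, Slc31a1, Slc19a2, Dnajc3, Hspa5, Ero1b, Canx, Hsp90b1, Calr, Creld2, Derl3, Mt1, Actg1, Cd8b, Pbsn, Krt7, Clec4f, Vsig4 and Marco. Alternatives used DESeq2 1.42.0 and limma 3.58.1 (voom). Promoter windows and names are RefSeq's on GRCr8, and 16904 table symbols matched directly and 2002 as synonyms. Some genes and 1 list are not reported here.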

Additional observations from a re-analysis of the deposited data

Results flagged for a closer look

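In 343 groups of 5 libraries (174 genes), 20 held a library far from the other 4 by Dixon's test, where chance alone flags about 1 in 20 groups. Library CON 1 stood apart for 6 genes and CON 2 for 5. In CON 1, Fas was high at 14.1 CPM (others 3.14 to 5.88), Slc34a2 at 16.7 CPM (4.09 to 7.07) and Stac3 at 486 CPM (24.0 to 146). The same library was low for Nat8 at 24.9 CPM (45 to 46.8), Rtn4rl2 at 11.8 CPM (19.4 to 22.4) and Tsku at 224 CPM (599 to 693). In CON 2, Adam8 was high at 2.32 CPM (0.95 to 1.24), Krt7 at 2.23 CPM (0 to 0.0897), Lcn2 at 17.7 CPM (2.78 to 4.75) and Trem2 at 0.268 CPM (others at 0), and Il1r1 was low at 66.4 CPM (103 to 116). In CON 4, Slc31a1 was high at 190.0 CPM (138 to 152), and in CON 5 Irf1 was low at 9.11 CPM (15 to 16.1). In HFD 1, Lrp1 was high at 584 CPM (387 to 408), Stac3 at 4.34 CPM (0.14 to 1.02) and Trpm4 low at 24.7 CPM (30.5 to 31.3). In HFD 2, Mlxipl was low at 68.6 CPM (119 to 135). In HFD 3, Il1r1 was high at 313 CPM (134 to 166) and Nr1i3 at 322 CPM (81.1 to 151). In HFD 4, Id1 was high at 81.2 CPM (15.1 to 29.6).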

How the results depend on the processing

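Genes called higher, called lower, near-silent in CON and called higher, and near-silent in HFD and called lower numbered 1322, 1436, 132 and 26. They numbered 5390, 505, 257 and 21 on library totals, 793, 1356, 57 and 21 by limma voom, 1912, 1799, 208 and 28 by DESeq2, 226, 266, 47 and 15 when tested against a 1.5-fold change, and 436, 607, 36 and 19 without HFD 2 and HFD 5. Without the low-count filter they were 1094, 1254, 177 and 55, with the strict filter (1 CPM in 5 libraries) 1316, 1439, 107 and 17, and with the CON and HFD libraries alone 1598, 1380, 45 and 17. A near-silence limit of 0.25 CPM gave 76 and 12 genes, and 1 CPM gave 232 and 53. Leaving out 1 library gave 754 to 1488, 925 to 1527, 81 to 166 and 18 to 29. The cause of these shifts was not tested, other than that fewer libraries leave fewer degrees of freedom. Deviations of same-numbered CON and HFD libraries correlated at 0.244, 0.215, 0.26, -0.000573 and -0.0778 for numbers 1 to 5. Differently numbered libraries were not compared, so these values cannot tell whether the numbers pair the samples. A fit with the replicate block called 792, 1117, 68 and 22. Of the named genes, Mrpl43 and Mrpl2 reversed on library totals, to 0.098 and 0.036. Of 387 called genes taken by the naming rule, 122 kept their call under every alternative that gave them an adjusted p. Some alternatives did not test every gene. Simulated 1.5-fold changes were mostly missed at this depth and number, though with a smaller share of changed genes than was called here. A missing call does not show equality.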
